A study of Mus musculus with 92 samples.

Results

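Newly made RNA was measured 2 h after acute loss of GABPA in mouse embryonic stem cells, in 4 SLAM-seq libraries: 2 treated for 2 h with the degrader dTAG-13 (500 nM) and 2 treated with its solvent DMSO. They were chosen by their labels from the 14 SLAM-seq libraries of the series, which holds 92 samples in all. The measure was the number of reads with T-to-C conversions in each of 56953 annotated gene intervals. All 4 libraries came from B6 embryonic stem cells with both alleles of Gabpa carrying the degradation tag (Gabpa dTAG/dTAG), grown in serum medium with LIF and the inhibitors PD0325901 and CHIR99021. All 4 were labelled with 4-thiouridine (4sU, 500 µM) and made as 3′-end libraries of polyadenylated RNA. The DMSO group was titled 2-4 h and also served the 4 h treatment, so values at 2 h and 4 h share their controls. Libraries treated for 1 h and 12 h had 2 DMSO libraries each of their own, and RNA-seq at 12 h came from the same genotype. The RNA-seq fit also held libraries titled Gabpb1 and Gabpb1_b2 in place of Gabpa, which are not compared here. The labels state biological duplicates but not which cultures or clones they came from, and dTAG-13 on untagged cells was not analysed here, so effects of the compound itself cannot be told apart from those of GABPA loss.

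GABPA is the DNA-binding subunit of GA-binding protein, an ETS-family transcription factor that pairs with a GABPB subunit carrying the activation domain. It binds GGAA-containing sites close to the start sites of many housekeeping genes and is also known as nuclear respiratory factor 2, for its sites in genes of mitochondrial proteins. dTAG-13 links the tagged protein to a ubiquitin ligase, so the protein is lost while its RNA is not targeted, and the Gabpa reads do not check the treatment. In SLAM-seq, 4sU built into RNA during the labelling time is alkylated and then read as C in place of T, so reads with conversions mark RNA made in that time. The question was which genes lose or gain RNA synthesis soon after GABPA is removed, before slower changes build up.

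The DMSO libraries held 17296582 and 17332383 reads in gene intervals, of which 1802519 and 1966691 (10.4% and 11.3%) carried a conversion. The 2 h dTAG-13 libraries held 18229297 and 14156006 reads, with 1651082 and 1397040 (9.06% and 9.87%) converted. Conversions per covered T were likewise higher in DMSO (0.710% and 0.755%) than in dTAG-13 (0.577% and 0.609%). No library without 4sU was analysed here, so the share of converted reads that sequencing errors or strain variants give was not measured. Replicates differed by more than sampling noise in each of the 7 SLAM-seq groups, and none was counted as a repeat of another. The 10 markers of embryonic stem cells summed to 1288 to 1450 CPM in DMSO (counts scaled to a common library total, here of all reads) and 1403 to 1428 in dTAG-13, and none was called. Of 13 feeder fibroblast markers, 12 stayed under 5 CPM in all 4 libraries, and the list summed to 55.8 to 63.8 CPM in DMSO and 64.5 to 66.8 in dTAG-13. Of 23 markers of differentiated cells, 19 stayed under 5 CPM, and the list summed to 633 to 847 CPM in DMSO and 537 to 743 in dTAG-13, mostly from Krt8 and Krt18. No marker of these lists was at 0 in all 4 libraries. In converted reads only 2 of the 13 feeder and 5 of the 23 differentiation markers had enough reads to be tested, and none of these was called.

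After 2 h of dTAG-13, newly made RNA fell at 510 genes and rose at 23 of the 15887 tested. The falls made up 3.21% of the genes tested and the rises 0.145% (edgeR quasi-likelihood test on converted reads, Benjamini-Hochberg adjusted p under 0.05). Of the falls, 346 exceeded 2-fold and 61 exceeded 4-fold, against 9 rises over 2-fold. The median change on the log2 scale was -1.19 among the falls and 0.96 among the rises, beside 0.01 over all genes tested. The scaling within converted reads holds the bulk of genes near 0, so changes are relative to that bulk. A shift of all new RNA together is not seen in them, and scaling by all reads is given further on. The groups did not overlap at any of the 510 falls or 23 rises, nor at 6474 of the 15887 tested. These are bulk libraries, in which fewer cells of a type and less RNA per cell cannot be told apart. At an unadjusted p under 0.05, 1388 genes were lower and 640 higher. The number of falls depended on single libraries, since it was 308 without DMSO replicate 2, 260 without dTAG-13 replicate 1 and 298 without dTAG-13 replicate 2. The number of rises depended on single libraries as well. Each gene called kept its direction wherever it was fitted, which the lack of overlap between the groups largely fixed in advance.

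**Figure D1:**
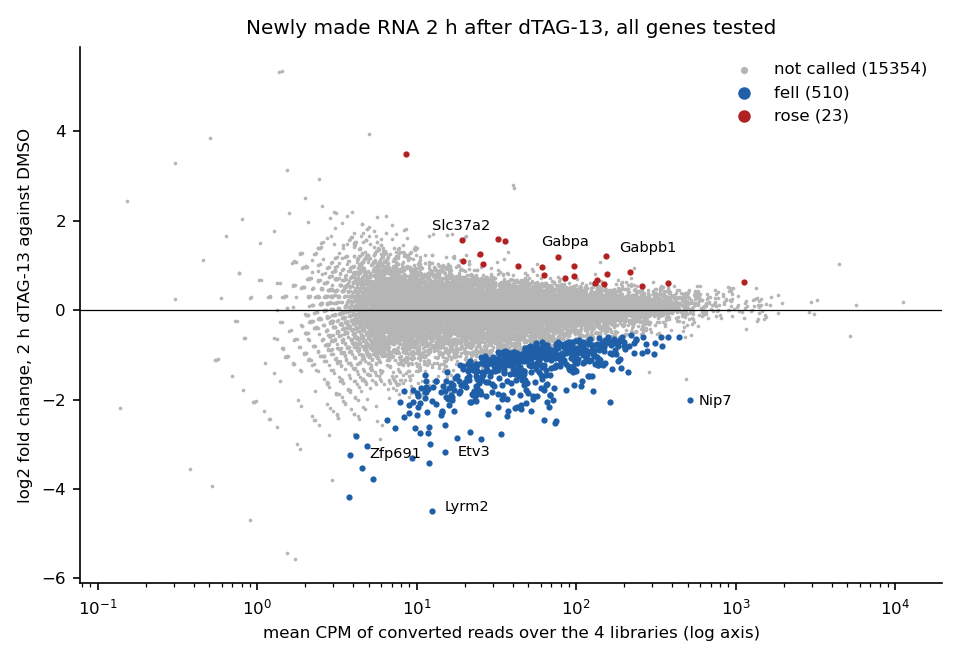
Log2 fold change of converted reads (2 h dTAG-13 against DMSO, vertical axis) against the mean CPM of converted reads over the 4 libraries (log axis), 1 point per gene tested. The 510 genes that fell (blue) lie below the body of genes not called (grey), and the 23 that rose (red) are few, with Gabpb1 and Gabpa among them.

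Of the 3 subunit genes of GA-binding protein, the DNA-binding subunit and 1 partner gained newly made RNA. Gabpb1, which encodes the main activating partner (chr2:126469362-126518257, minus strand, mm39), gave 92.5 and 94.3 converted CPM (the same scaling within converted reads) in DMSO and 212 and 220 in dTAG-13. Its log2 change was 1.21 ± 0.15 (SE, 2 libraries per group, adjusted p = 2.18e-05). Gabpa itself (chr16:84631813-84660667, plus strand) gave 69.4 and 61.2 converted CPM in DMSO and 126 and 133 in dTAG-13, a log2 change of 0.99 ± 0.17 (SE, adjusted p = 0.000884). Its interval overlaps that of Atp5j on the other strand. The interval of Gabpb1 overlaps Gm27003 on the other strand and an unnamed interval on its own, and that of Gabpb2 overlaps Gm16740. No source used here says whether the counting used strand, so reads of overlapping genes may not be separated. Gabpb2, the alternative partner (chr3:95089077-95125227, minus strand), gave 94.2 and 124 in DMSO and 137 and 137 in dTAG-13, and did not pass the test (0.33 ± 0.17, adjusted p = 0.46). Gabpb1 was also the only gene that rose when all reads were counted, a call lost with only the 4 libraries fitted and without any 1 of them, with 30.1 and 34.1 CPM in DMSO against 54.5 and 60.7 in dTAG-13 (log2 change 0.84 ± 0.14, adjusted p = 0.02). In converted reads Gabpb1 and Gabpa kept an adjusted p under 0.05 in each of the 11 alternative fits, leave-one-out fits included, which none of the other 6 named rises did, although Gabpa lay just under a limit of 2-fold.

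The largest fall among genes above the level limit was at Etv3, which encodes an ETS-family repressor (chr3:87432714-87447463, plus strand). It gave 33.0 and 21.4 converted CPM in DMSO and 3.07 and 2.85 in dTAG-13 (60 and 42 reads against 5 and 4), so it fell by 3.16 ± 0.60 on the log2 scale (SE, adjusted p = 0.0019). Etv3 was the only one of 15 other ETS-family genes tested that fell. Zfp691, a zinc finger gene (chr4:119026710-119031392, minus strand), went from 25.9 and 17.3 to 3.68 and 1.43 converted CPM (-3.00 ± 0.54, adjusted p = 0.00122). Krt10, a keratin best known from the upper epidermis (chr11:99276080-99280190, minus strand), went from 47.4 and 41.8 to 3.68 and 8.56 (-2.88 ± 0.39, adjusted p = 5.27e-05). In each of these 3 genes the lower DMSO library stood far above the higher dTAG-13 library.

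Slc25a38, the mitochondrial carrier that brings in glycine for heme synthesis (chr9:119939440-119953570, plus strand), went from 30.8 and 32.1 converted CPM to 4.29 and 4.28 (-2.86 ± 0.40, adjusted p = 9.12e-05). Kti12, a factor for modification of transfer RNA (chr4:108704982-108706610, plus strand), went from 67.7 and 50.5 to 9.81 and 7.13 (-2.78 ± 0.30, adjusted p = 5.33e-06). The Kti12 interval overlaps that of Txndc12 on the same strand, and Txndc12 fell too, so their reads may be shared. Mrpl53, a protein of the large mitochondrial ribosomal subunit (chr6:83086021-83086920, plus strand), went from 123 and 130 to 19.6 and 24.3 (-2.53 ± 0.23, adjusted p = 5.70e-07). The replicates of these genes lay close together, and the drop was over 5-fold in each. The rest of the 15 largest falls were the zinc finger genes Zfp105 and Zscan12, Spopl (an adaptor of ubiquitin ligases), Blzf1 (a Golgi protein), Ogfr, Hars2 (the histidyl-tRNA synthetase of mitochondria) and the methyltransferase genes Mettl6, Mettl21a and Mettl13. Their log2 changes ran from -2.75 at Zfp105 to -2.27 at Mettl13 and Mettl21a, with adjusted p from 2.82e-06 (Mettl6) to 0.0151 (Mettl21a). Mettl6 and Hars2 overlap Eaf1 and Hars on the other strand, and Eaf1 fell too. Krt10, Spopl, Mrpl53 and Blzf1 also overlap other intervals (Gm11940, Gm13331, Ccdc142os with Gm42688, and Nme7). So do, among others, Slirp, Ndufa13, Exosc3, Exosc4, Pomp, Psma6, Ints11, Ints12, Rfc2 and Rps14, named further on. Zfp105, Ogfr and Mettl21a lost their calls under at least 1 alternative.

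**Figure D2:**
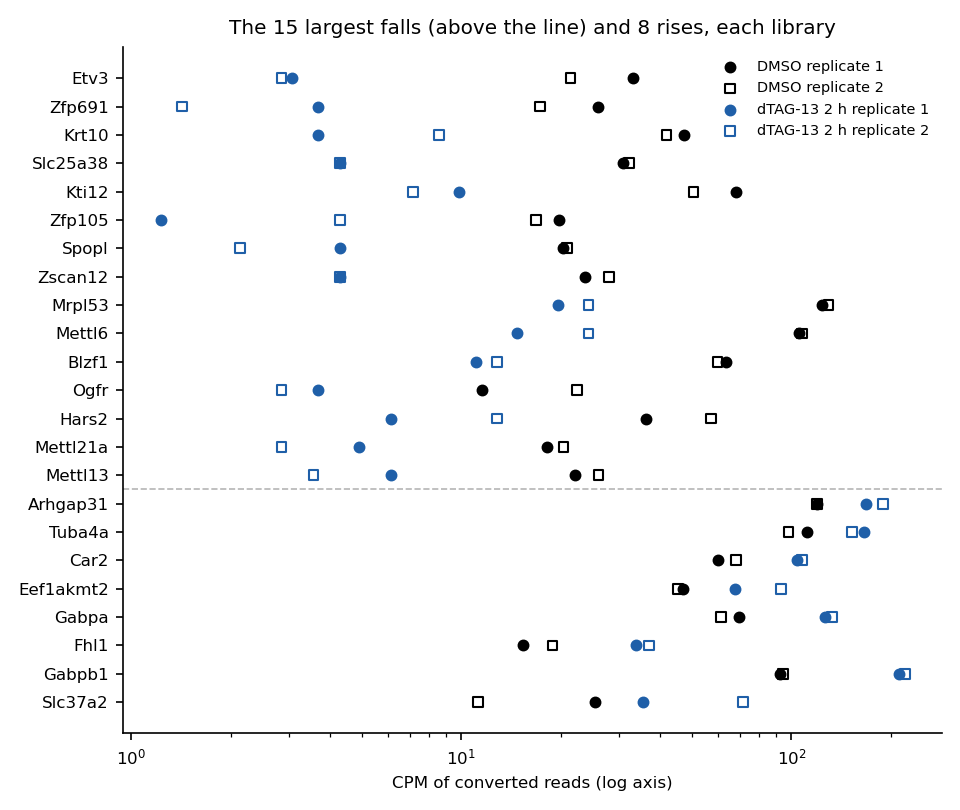
CPM of converted reads (log axis) in each of the 2 DMSO (black) and 2 dTAG-13 libraries (blue) for the 15 largest falls, above the dashed line, and the 8 rises that met the naming rule, below it. In every gene shown both dTAG-13 points lie on the same side of both DMSO points, with wide gaps at Etv3, Kti12 and Mrpl53 and a narrow one at Slc37a2.

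Promoters of some of these genes are shown because GABPA acts through short ETS sites near the start of transcription. The stretches run from 130 bases before to 20 bases after the annotated start on the gene's strand, 5′ to 3′ (RefSeq, GRCm38.p6, a build other than the mm39 of the counts). Capitals mark each CCGGAAG or its reverse complement CTTCCGG, called the core here, a string longer than the GGAA named above. It was added after the promoters were seen. GGAA outside this string was not marked, and the Etv3 stretch holds it. Etv3 (chr3:87525448-87525597, plus) had no match in spite of the largest fall, Slc25a38 (chr9:120110252-120110401, plus) and Zfp105 (chr9:122922948-122923097, plus) had 1, and Kti12 (chr4:108847727-108847876, plus), Zscan12 (chr13:21362690-21362839, plus) and Mrpl53 (chr6:83108978-83109127, plus) had 2.
Etv3: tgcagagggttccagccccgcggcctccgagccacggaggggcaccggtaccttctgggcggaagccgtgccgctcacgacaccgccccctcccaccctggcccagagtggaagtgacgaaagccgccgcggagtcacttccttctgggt
Slc25a38: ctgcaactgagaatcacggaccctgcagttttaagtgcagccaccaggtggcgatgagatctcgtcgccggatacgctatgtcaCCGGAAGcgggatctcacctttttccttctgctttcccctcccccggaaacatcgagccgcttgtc
Zfp105: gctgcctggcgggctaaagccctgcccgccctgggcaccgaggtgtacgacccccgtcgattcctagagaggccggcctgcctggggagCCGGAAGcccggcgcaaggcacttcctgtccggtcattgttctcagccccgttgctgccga
Kti12: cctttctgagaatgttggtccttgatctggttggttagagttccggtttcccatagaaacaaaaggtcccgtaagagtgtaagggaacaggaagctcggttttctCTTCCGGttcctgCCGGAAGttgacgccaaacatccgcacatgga
Zscan12: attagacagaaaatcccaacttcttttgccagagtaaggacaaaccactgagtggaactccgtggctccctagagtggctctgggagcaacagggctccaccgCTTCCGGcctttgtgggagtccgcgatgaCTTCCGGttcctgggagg
Mrpl53: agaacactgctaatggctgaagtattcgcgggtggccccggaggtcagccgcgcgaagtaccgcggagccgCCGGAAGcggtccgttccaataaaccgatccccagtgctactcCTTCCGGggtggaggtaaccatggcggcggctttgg
In Kti12 the 2 copies lie a few bases apart on opposite strands and read away from each other. Among the 15 largest falls, 14 had a promoter in the table, 8 of them had the core in at least 1 window and 4 had the longer motif CCGGAAGT (Kti12, Zscan12, Mettl6 and Blzf1). Etv3, Zfp691, Krt10, Ogfr, Mettl21a and Mettl13 had neither. Of the 8 largest falls with a promoter in the table, Zfp691 and Krt10 are not printed above.

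The ETS motif was counted in the promoters of the fallen genes and of the other genes. Windows from 250 bases before to 50 after the start were searched on both strands, for 362 of 446 fallen genes with a plain symbol (81.2%) and 79.8% of those not called. CCGGAAGT was present at 130 of 361 promoters of fallen genes (36.0%), at 8.12% of those not called and at 9.16% of all tested. Over all 32851 windows of the table the share was 3.89%. The core CCGGAAG, which every CCGGAAGT contains, was present at 64.3% of the promoters of fallen genes, 18.2% of those not called and 8.86% of all windows. The NRF1 core GCATGCGC, bound by another regulator of mitochondrial genes, was found at 4.43% of the promoters of fallen genes and 6.42% of those not called. The CREB/ATF motif TGACGTCA was found at 2.49% and 3.68%. These are counts of letters in a window, not of bound sites, and they were not tested.

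The share of genes that fell was also counted by the number of copies of CCGGAAGT in the best window. Of 8759 genes with no match, 231 fell (2.64%, median log2 change of all of them 0.02). With 1 match, 111 of 794 fell (13.98%, median -0.31), and with 2 or more, 20 of 94 fell (21.3%, median -0.62). Most genes with the motif were thus not called at 2 h, and most fallen genes had no full match. In fallen genes the matches were centred at a median of -13 bases from the annotated start (quartiles -43 and 6), against -29 in genes not called.

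**Figure D3:**
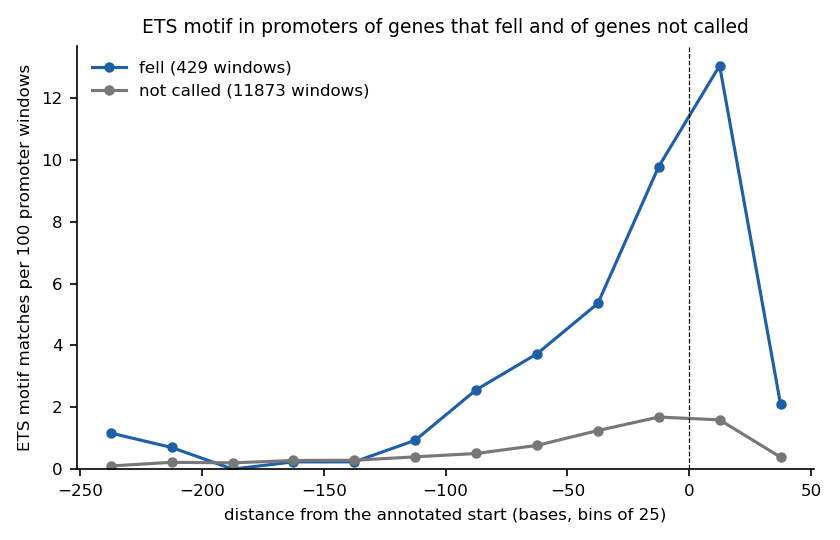
Matches to CCGGAAGT on either strand per 100 promoter windows, by distance from the annotated start in bins of 25 bases, for genes that fell (blue, 429 windows) and genes not called (grey, 11873 windows). The blue line is highest in the bins just before and just after the start, at 9.79 and 13.1. The grey line is also highest in these bins, at 1.68 and 1.59.

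The layout of the fallen loci was set beside that of all genes tested, as a description. Another gene started on the opposite strand within 1000 bases upstream at 123 of the 510 (24.1%), against 15.8% of all genes tested. Of 80 fallen genes whose head-to-head partner was tested, the partner fell too at 14 (17.5%), against 64 of 1445 genes not called (4.43%). The 14 formed 7 pairs. Partners start upstream on the other strand and run away from the gene, so their lack of overlap follows from the definition. Nip7, a factor for the large ribosomal subunit, and Cog8, of a Golgi tethering complex, start back to back on chromosome 8. Cog8 gave 147 and 141 converted CPM in DMSO and 59.5 and 52.8 in dTAG-13. Eif3i, a subunit of a translation initiation factor, and Tmem234 form another pair, with falls by 1.27 and 0.83 on the log2 scale. The other 5 were Arfip2 with Gm45799 (both overlapping Timm10b), Entr1 with Pmpca, Mfap3 with Fam114a2, Trappc11 with Rwdd4a, and Kars with Terf2ip. The fallen genes had shorter intervals (median 11985 bases against 21532) and more reads to test (median 70.4 against 26.5 converted CPM in DMSO, a counting depth not set per length). The median share of converted reads in DMSO was 15.8% against 15.9%. The interval overlapped a gene on the other strand at 40.2% of the fallen genes and 44.9% of all tested.

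Falls were counted in lists of genes for ribosome assembly, the ribosome itself and mitochondria. Of 86 ribosome assembly factors tested, 15 fell (17.4%, beside 3.21% of all genes), and the list's median was -0.20. In all, 67 were lower (77.9%, beside 48.6% of all genes). Nip7 (chr8:107783509-107787563, plus strand), which acts in maturation of the large subunit, had the smallest p of all genes: 755 and 914 converted CPM in DMSO, 205 and 206 in dTAG-13. It fell by 2.02 ± 0.15 on the log2 scale (SE, adjusted p = 2.43e-08), on 1372 and 1792 reads against 335 and 289. Rpf1, Rpf2 and Ebna1bp2, which act on the same subunit, fell by 1.71 ± 0.20, 1.58 ± 0.19 and 2.17 ± 0.25, and Utp23, of the small-subunit processome, by 2.26 ± 0.28. Of 79 cytosolic ribosomal proteins, by contrast, 1 fell (1.27%), and their median was 0.06. That gene was Rps14, with 375 and 445 converted CPM in DMSO and 290 and 252 in dTAG-13 (-0.60 ± 0.16, adjusted p = 0.0414), a call that at least 1 alternative removed.

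Of 81 mitochondrial ribosomal proteins, 18 fell (22.2%, median of the list -0.11). Mrpl53 led them, followed by Mrpl27 (54.5 and 56.1 to 17.8 and 11.4 converted CPM, -1.90 ± 0.33) and Mrps21 (56.2 and 44.9 to 9.20 and 18.6, -1.88 ± 0.32). The list was split: 47 of its 81 members were lower (58.0%, beside 48.6% of all genes), 63 were not called, and none rose. Of 49 genes for mitochondrial DNA expression and protein import, 11 fell (22.4%, median -0.31), and 35 were lower (71.4%). Timm10b, a small chaperone of the inner-membrane import route, went from 76.5 and 62.2 converted CPM to 16.6 and 14.3 (-2.16 ± 0.26, adjusted p = 1.38e-05). Its interval overlaps Arfip2 on the other strand and Gm45799 on its own, which both fell, so reads of these 3 may be shared. The import genes Tomm22, Timm10, Timm8a1, Tomm70a, Tomm5 and Mtx2 fell by 0.61 to 1.08, as did the processing peptidase subunits Pmpca and Pmpcb. Slirp, which stabilises mitochondrial messenger RNA, went from 258 and 286 to 120 and 102 (-1.29 ± 0.17). Tfam, the packaging and transcription factor of mitochondrial DNA, went from 149 and 151 to 88.3 and 89.2 (-0.76 ± 0.17, adjusted p = 0.00873). Hars2 was the 1 fall among 17 mitochondrial tRNA synthetases.

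Of 75 nuclear-encoded subunits of the respiratory chain and ATP synthase, 8 fell (10.7%, median -0.05). They belonged to complex I (Ndufa13, Ndufb9, Ndufb7 and Ndufa12), complex III (Uqcrq), complex IV (Cox7a2 and Cox6b1) and ATP synthase (Atp5h). Ndufa13 went from 122 and 153 converted CPM to 52.7 and 52.8 (-1.38 ± 0.22, adjusted p = 0.000492), and Cox6b1, the smallest fall, from 344 and 295 to 234 and 184 (-0.61 ± 0.16, adjusted p = 0.0366). The medians of the 4 mitochondrial lists ran from -0.31 to -0.05, beside 0.01 over all genes. At an unadjusted p under 0.05, 25 of the 81 mitochondrial ribosomal genes and 16 of the 49 for DNA expression and import were lower. Over all genes, 1388 of 15887 were.

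Protein and RNA turnover genes were also among the falls. Of 38 proteasome genes tested, 6 fell (15.8%, median -0.11). Pomp, the chaperone for assembly of the proteasome core, went from 170 and 225 converted CPM to 52.1 and 60.6 (-1.81 ± 0.19, adjusted p = 4.79e-06), and the core subunit Psmb4 from 139 and 159 to 52.1 and 40.7 (-1.68 ± 0.18). Psma6, Psmb10, Psmc2 and Psmd6 fell by 0.96, 1.81, 0.90 and 1.15. In the RNA exosome, which degrades and trims RNA, Exosc3 and Exosc4 fell by 2.19 ± 0.27 and 2.05 ± 0.28, while 14 of 16 members were not called and the list's median was 0.10. Of 50 spliceosome proteins, 5 fell (median -0.11): Snrnp27, Sf3b6, Snrpd2, Snrpe and Snrpb, by 0.70 to 1.47.

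Lists of the transcription and replication machinery were counted against the same 3.21% of all genes. Eaf1, which stimulates elongation by RNA polymerase II, was the only one of 31 pausing and elongation factors that fell (3.23%), from 88.1 and 83.6 converted CPM to 22.1 and 21.4 (-1.98 ± 0.24, adjusted p = 1.38e-05), with the overlap with Mettl6 named above. Of 16 Integrator subunits, which form the complex that cleaves RNA during its synthesis, Ints11 (the cleaving subunit) and Ints12 fell (12.5%), by 0.98 ± 0.25 and 0.86 ± 0.21. Both calls were lost under at least 1 alternative, and the other 14 subunits were not called (median of the list 0.07). None of 10 TFIIH genes was called. Of 49 replication genes, 5 fell (10.2%): Rfc3 and Rfc2 of the clamp loader, Tyms (thymidylate synthase), Orc3 and Gins4, by 0.96 to 1.33.

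Lists for stress and cell state held no calls at 2 h, and with 10 to 34 members each and 3.21% falls and 0.145% rises over all genes this is near the background. Of 34 p53 targets none was called, and their median was 0.13. In the same list 26 of the 34 rose at 12 h, beside 12.3% of all genes, where SLAM-seq had its own DMSO libraries. No member was called among 30 genes of the integrated stress response (median 0.01), 13 heat shock chaperones (0.04), 23 immediate early genes (0.09), 27 naive and general pluripotency genes (0.07) and 10 formative or primed genes (0.06). Nanog gave 337 and 296 CPM of all reads in DMSO and 326 and 352 in dTAG-13. Pou5f1 gave 178 and 84.0 in DMSO and 219 and 111 in dTAG-13, so its replicates differed by more than its groups. At this depth a 2-fold change at a single gene could be missed: when 2-fold changes were put into simulated counts of 15206 genes with these library sizes, 37.4% were called, and of 4-fold changes 83.5%.

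**Figure D4:**
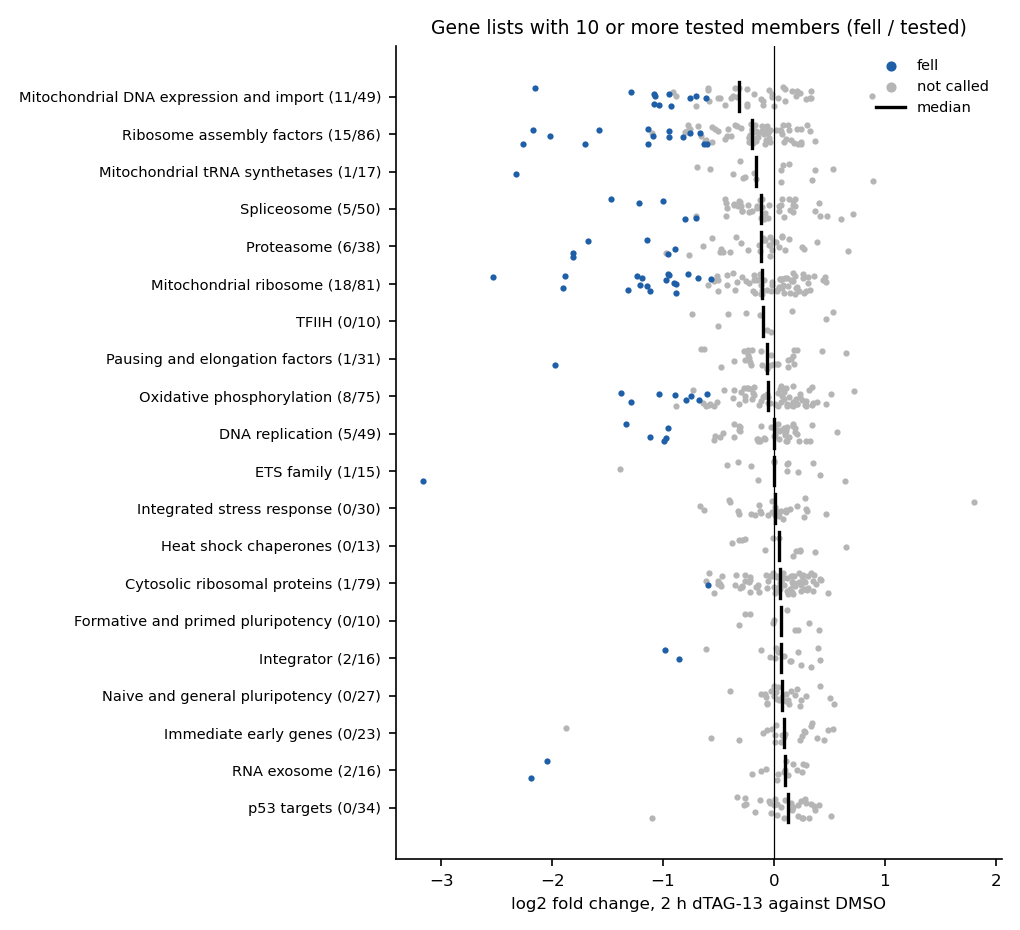
Log2 fold change of converted reads (2 h dTAG-13 against DMSO) for every tested member of the lists with 10 or more tested members, 1 point per gene, blue where it fell and grey where it was not called, with a black bar at the list's median. Medians stay near 0 in all lists, and blue points extend to the left of -2 in the lists for mitochondrial ribosome, ribosome assembly, import, RNA exosome, tRNA synthetases and the ETS family.

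The 23 rises were few and mostly of uncertain identity. Of these, 15 were genes without a symbol, predicted genes or pseudogenes, whose reads may belong to near-identical copies elsewhere. The 8 that met the naming rule were Slc37a2, Gabpb1, Fhl1, Gabpa, Eef1akmt2, Car2, Tuba4a and Arhgap31. All of these but Car2 overlap other intervals on 1 or both strands. Slc37a2, a sugar-phosphate exchanger, gave 25.3 and 11.2 converted CPM in DMSO and 35.6 and 71.3 in dTAG-13 (1.54 ± 0.39, adjusted p = 0.0218), with replicates that differed over 2-fold in each group. Car2, a carbonic anhydrase, gave 60.0 and 67.8 in DMSO and 104 and 108 in dTAG-13 (0.72 ± 0.20, adjusted p = 0.0366). Fhl1, a LIM-domain protein of muscle, gave 15.4 and 18.9 against 33.7 and 37.1 (1.04 ± 0.29, adjusted p = 0.0494). None of the 23 was called at 1 h, which is near the background of 0.0567% rises and 1.72% falls over all genes. In SLAM-seq at 12 h, 3 rose (13.04%, beside 12.3% of all genes) and 2 fell. In RNA-seq at 12 h, 6 of the 16 tested rose (37.5%, beside 24.6% of all genes) and 1 fell.

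All reads, most of which carried no conversion, were tested in the same libraries. Of 26957 genes tested, 57 fell (0.211%) and Gabpb1 rose. Kti12 went from 20.7 and 19.0 CPM to 4.49 and 4.20 (-2.19 ± 0.18, adjusted p = 4.22e-05). Champ1, Kin and Zscan12 also fell, by 1.32, 1.29 and 1.84. Of the 54 that were also tested in converted reads, 48 had over 20% of their DMSO reads converted, beside 5611 of all 15887 genes tested. The median share of the 54 was 30.9%, against 15.9% over all genes tested. The count of 57 fell to 25, 9, 3 and 25 when DMSO replicate 1, DMSO replicate 2, dTAG-13 replicate 1 and dTAG-13 replicate 2 were left out in turn.

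The change in all reads is given here by how much of a gene's RNA was new in DMSO. Among the 510 fallen genes, the 121 with at most 10% of DMSO reads converted had a median change in all reads of -0.17, although their median in converted reads was -1.11. The 199 genes with 10 to 20% converted had -0.34 in all reads, the 172 with 20 to 40% had -0.70, and the 18 above 40% had -1.07. The last 2 classes held 19 and 7 of the 27 fallen zinc finger genes. Converted reads are part of all reads in the same libraries, so these values describe and do not test.

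Relative to the library-wide share, the share of a gene's reads that were converted was lower at 227 genes (1.43% of 15836) and higher at 8 (0.0505%). Nip7 had 24.0% and 25.2% of its reads converted in DMSO and 10.3% and 10.0% in dTAG-13 (adjusted p = 4.31e-07). Pomp went from 5.12% and 5.82% to 1.56% and 1.69%, Psmb4 from 4.45% and 5.01% to 1.54% and 1.24%, and Mrpl53 from 9.89% and 10.98% to 1.77% and 2.62%. In all reads Pomp had a log2 change of -0.23 ± 0.14 and Psmb4 of -0.09 ± 0.13, and neither was called. Gabpa was among the 8 with a higher share, at 16.6% and 19.8% in DMSO and 21.4% and 25.8% in dTAG-13 (adjusted p = 0.0337). That call was lost in 6 of 7 alternative fits, among them each fit without 1 library. The share was also lower over all reads together in the dTAG-13 libraries, as given above. The test scaled converted and unconverted reads each to their own library total, so these counts are relative to that lower share. The percentages of single genes are given without this scaling. Leaving out DMSO replicate 1, DMSO replicate 2, dTAG-13 replicate 1 or dTAG-13 replicate 2 gave 113, 138, 129 and 90 genes with a lower share, and 9, 0, 7 and 8 with a higher one.

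Libraries with their own controls at other times gave the same direction at most fallen genes. At 1 h, 273 genes fell (1.72% of 15887) and 9 rose (0.0567%), and 206 of the 510 were among the falls. That is 40.4% of the genes that fell at 2 h and 75.5% of those that fell at 1 h, and none of the 510 rose. In all, 495 of the 510 were lower at 1 h. At 12 h, 2905 genes fell (18.3%) and 1952 rose (12.3%), and 480 of the 510 fell (94.1% of the 2 h falls, 16.5% of the 12 h falls) while 2 rose. RNA-seq at 12 h called 3589 falls (21.9% of 16396) and 4027 rises (24.6%). Of the 488 fallen genes tested there, 462 fell, 94.7% of those tested and 12.9% of all falls in RNA-seq, and 5 rose.

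No single gene was called different between 2 h and either 1 h or 4 h. The test of the 2 h response minus the 1 h response, each against its own DMSO, called 0 genes (356 higher and 373 lower at an unadjusted p under 0.05, smallest adjusted p 0.678). The test of 4 h against 2 h dTAG-13 called 0 as well (335 and 322, smallest adjusted p 0.456). DESeq2 called 0 genes in either test. Spopl had the smallest p in the first: its log2 change was 0.60 at 1 h and -2.63 at 2 h (adjusted p of the difference = 0.678). Over the 510 genes the median change was -0.89 at 1 h, -1.19 at 2 h, -1.25 at 4 h and -1.85 at 12 h. The genes were chosen by their 2 h values, and 2 h and 4 h share their DMSO libraries, so the medians of these times are not free of that choice. The DMSO libraries also differed between times in converted reads, with 5.44% and 6.08% at 1 h, 10.4% and 11.3% at 2-4 h and 14.1% and 13.99% at 12 h, and the part of this in the medians was not tested.

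The 12 h response differed from the 2 h response at many genes. It was higher at 446 genes (2.81% of 15887) and lower at 948 (5.97%), each time taken against its own DMSO. Among the 510 genes, 151 were further down at 12 h, 2 were higher and 357 were not called. Rpf1 was at -1.71 at 2 h and -4.45 at 12 h, a difference of -2.75 ± 0.30 (adjusted p = 1.04e-05). Shq1, needed for assembly of small nucleolar ribonucleoproteins, was at -1.05 and -4.87, a difference of -3.82 ± 0.44 (adjusted p = 1.32e-05), and Umps, of pyrimidine synthesis, at -1.23 and -4.02. Etv3 was at -3.25 at 1 h, -3.16 at 2 h, -4.34 at 4 h and -4.29 at 12 h, and at -4.90 in RNA-seq at 12 h. The count of 948 was 380 without 12 h DMSO replicate 1, 558 without 12 h DMSO replicate 2, 539 without 12 h dTAG-13 replicate 2 and 604 without 2 h dTAG-13 replicate 1. The count of 446 was 220 and 217 without 12 h DMSO replicates 1 and 2, 224 without 2-4 h DMSO replicate 2 and 274 without 2 h dTAG-13 replicate 2.

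**Figure D5:**
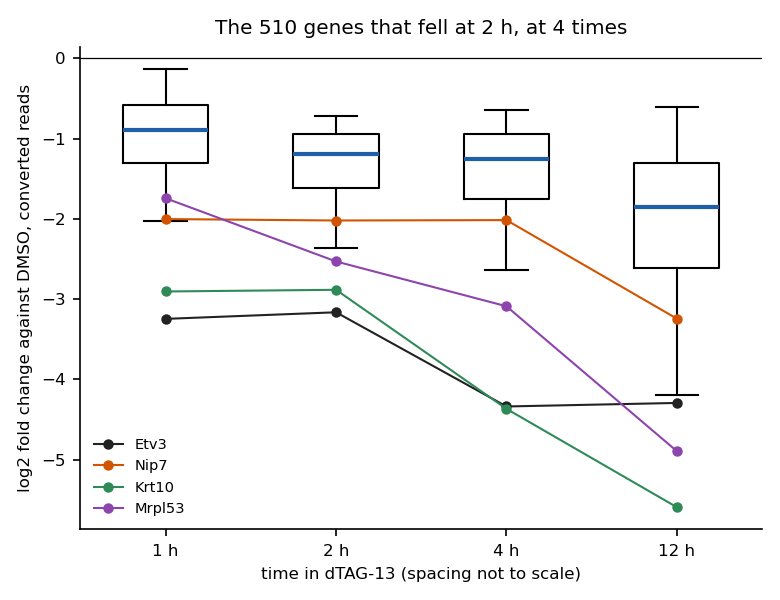
Log2 fold change against DMSO for the 510 genes that fell at 2 h, by time in dTAG-13 (spacing not to scale): blue line median, box quartiles, whiskers the 5th and 95th percentiles, and 4 named genes as lines. The medians are -0.89, -1.19, -1.25 and -1.85. The 2 h values chose the genes, and 2 h and 4 h share their DMSO libraries.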

How the data were processed

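The SLAM-seq tables were deposited per library with counts per gene interval of all reads and of converted reads, which the authors made with slamdunk v0.4.3 per the file headers, on mm39 per the submitters' processing notes. The intervals match GENCODE vM32 gene spans, introns included. The tables' CPM column, also from the authors, was used only to check the counts. The labelling time, the minimum of conversions per read and the strand setting are not given in the sources used here. RNA-seq values were deposited by the authors in expected counts (the submitters' processing notes list RSEM 1.3.1) and were rounded to whole numbers. Symbols were matched for 52029 of the 56953 gene IDs.

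Genes were filtered with filterByExpr (minimum count 10, total 15), scaled by TMM and tested with edgeR 4.0.16 (R 4.3.3) in 1 fit of the 14 SLAM-seq libraries (7 groups of 2, 7 residual degrees of freedom), with adjustment over all genes tested. The all-reads test used the same design. The converted share was tested as an interaction of read kind and group, with each kind scaled to its own library total. RNA-seq was tested the same way in 1 fit of all RNA-seq libraries, with 6 residual degrees of freedom. Each SE was obtained from the log2 fold change and the square root of the test's F. P-values set each change against the spread between duplicate libraries, estimated over all groups of the fit. Named genes were the GABP subunits, the 15 largest changes per direction with non-overlapping groups and a mean log2 CPM of 3 or more, up to 4 members of each of 24 lists by smallest p, and the 5 smallest p per direction in the other tests, leaving out unnamed, predicted and pseudogene intervals. Of these, 1 gene is not reported here. Members of lists that fell, the partners of head-to-head genes and the examples Cog8, Eif3i, Utp23, Mrpl27, Mrps21 and Cox6b1 were added after their values were seen, as was the motif core CCGGAAG. The libraries and lists were chosen with earlier results of these data known. Only 385 of the 510 fallen genes (75.5%) matched the promoter table, so the motif search was limited, after this was seen, to genes with a plain symbol. The tests were tried on simulated counts with known changes. In these, 4.84% of calls in converted reads, 5.83% in all reads and 9.20% in the converted share were false.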

Additional observations from a re-analysis of the deposited data

Results flagged for a closer look

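The response at 12 h minus the response at 2 h, each against its own DMSO libraries, was tested by an interaction term in converted reads and passed at 446 genes that were higher at 12 h and 948 that were lower. The 5 named genes with the smallest p on the higher side were Zc3h7a (difference 2.76 on the log2 scale), Chl1 (5.08), Peak1 (2.92), Gphn (1.80) and Zfp365 (2.35). Zfp365 was also higher in RNA-seq at 12 h (2.57), while RNA-seq gave Zc3h7a -0.23, Peak1 0.18 and Gphn 0.13, and Chl1 was not tested there. The intervals of Chl1, Peak1 and Gphn span 239626, 216942 and 458394 bases with their introns. On the lower side the named genes were Sssca1 (-3.37), Rpf1 (-2.75), Rps27rt (-2.33), Umps (-2.78) and Shq1 (-3.82). Sssca1 is the symbol of 2 gene IDs, and Rps27rt is a near-copy of Rps27 whose reads may not be separated from it.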

How the results depend on the processing

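All 510 falls and 23 rises at 2 h kept their direction under each alternative that fitted them. The groups did not overlap at any of these genes, so refits of the same libraries could hardly give another direction. Of the 56 named genes called, 39 kept an adjusted p under 0.05 in each of the 11 alternative fits and 17 lost it in at least 1. The limit of 2-fold is not among these fits. For the 23 rises the count was 15 with DESeq2, 50 with no filter on low counts, 5 with only the 4 libraries compared, 9 with library sizes and TMM factors from all reads and 9 with a limit of 2-fold, and it ran from 9 to 106 with 1 library left out. For the 510 falls it was 314 with only the 4 libraries, 766 with factors from all reads, which shifted the median of all genes to -0.17, and 260 to 392 with 1 library left out; the other alternatives stayed within 1.5 times. In all reads the 57 falls became 90 with DESeq2, 102 with no filter, 0 with only the 4 libraries and 3 to 25 with 1 library left out, and the 1 rise became 5 with no filter and 0 with only the 4 libraries (0 to 1 with 1 left out, never Gabpb1). The 8 higher shares became 33 with no filter and 0 to 9 with 1 left out, and the 227 lower shares 90 to 138. With no filter, 4 genes were higher and 7 lower at 2 h than at 1 h, and 14 higher and 13 lower at 4 h than at 2 h. With 1 library left out these ran from 0 to 2, 0 to 3, 0 to 8 and 0 to 2. For 12 h against 2 h, DESeq2 gave 258 higher, and leave-one-out fits gave 217 to 520 higher and 380 to 769 lower. RNA-seq at 12 h gave 3134 to 3387 rises and 3054 to 3341 falls with 1 library left out. With only the 4 libraries compared, RNA-seq at 12 h gave 3361 rises and 3650 falls. The causes were not tested.

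Replicate numbers were shared by the groups, but no label says that they pair cultures, and with only 2 numbers the data cannot settle it (correlation of same-numbered deviations 0.39 between DMSO and 2 h dTAG-13, 0.10 between 2 h and 4 h dTAG-13 and 0.16 between DMSO and 4 h dTAG-13). With the replicate number as a block there were 99 rises and 687 falls at 2 h, 5 and 208 in all reads, 2 genes higher and 0 lower against 1 h, 4 and 1 at 4 h against 2 h, and 818 and 1544 at 12 h against 2 h.

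Among the named genes, direction changed at 7, none of them called. With factors from all reads Etv5 was at -0.061 and Vim at -0.030. With 1 library left out the log2 change ran from -0.068 to 0.80 at Sox1, from -0.023 to 0.34 at Vim, from -0.98 to 0.021 at Wars, from -0.37 to 1.07 at Pou5f1, from -0.56 to 0.017 at Krt8 and from -0.030 to 0.96 at Twist1. A filter at a mean log2 CPM of 3 and DESeq2 size factors left each count of calls at 2 h in converted reads within 1.5 times.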

Other observations

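Zinc finger genes, most of which encode DNA-binding proteins, and methyltransferase-like genes recurred among the falls, and both groups were formed by symbol after the values were seen, so they carry no test. Of 368 tested genes with symbols in Zfp, Zscan or Zkscan, 27 fell (7.34%, median log2 change -0.10) and none rose, beside 3.21% falls among all genes. Of 22 Mettl genes, 3 fell (13.6%, median -0.40) and none rose. Lyrm2, a mitochondrial LYR-motif protein, lay under the level limit for named genes with 43 and 47 converted reads in DMSO and 1 and 2 in dTAG-13.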
